A study of Mus musculus with 6 samples.

Results

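Transcripts of 10 genes of the AP-1 and immediate early response were measured on 6 arrays of mouse thymocytes at the double-negative (DN) stage, before CD4 or CD8 is carried on the surface. They are Fos, Fosb, Fosl2, Jun, Junb, Jund, Atf3, Btg2, Ier2 and Dusp1, 10 of the 19937 genes measured, chosen by name. Each was read from the probe set annotated to that gene alone, and each of the 10 had 1 such probe set. The study compared 3 RAG-/- arrays, of DN thymocytes that mice lacking Rag2 (Rag2-/-) provided and labelled as the control, with 3 DNTLX3+ arrays, labelled tumoral, of sorted DN thymocytes of wild-type origin that received TLX3 from a retrovirus and grew on OP9-DL1 stroma. Rag2 belongs to the recombinase that assembles antigen receptor genes, and thymocytes that lack it halt within the DN stage. TLX3, a homeobox factor, is active in some T-cell leukaemias, and OP9-DL1 cells present a Notch ligand. Per the labels, thymi came from C57Bl/6 mice 4 to 6 weeks old, and the vector, pMSCV-GFP-TLX3, also carries GFP. The co-culture lasted 4 to 5 weeks, on irradiated stroma with supernatants containing interleukin 7 (1%) and Flt3 ligand (2.5%). Arrays of cells given the vector without TLX3 were not analysed here, and whether the RAG-/- cells were cultured is not stated, so genotype, virus and culture cannot be told apart. Separate mice or cultures are not named for the replicates either, and p-values then reflect the spread among these arrays alone, which may be technical.

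Immediate early genes are transcribed within minutes of a signal, without new protein synthesis, and most of their mRNAs are short-lived. The products of the Fos and Jun genes pair through leucine zippers to form AP-1, and the make-up of the pair sets how strongly it activates. Fos proteins cannot pair with themselves and need a Jun partner, whereas Jun proteins can form pairs of their own. In thymocytes, AP-1 is known as a target of Ras, ERK and JNK signalling below the pre-T-cell receptor and as the partner of NFAT. Cell handling and tissue dissociation are also known to induce these genes, and no measure of handling time was used here.

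Upstream sequence is shown for 5 of the 10 genes, chosen among windows that hold a searched element. They are the 2 whose level was lower (Btg2 and Jun), 2 of the 4 whose level was higher (Fos and Junb), and Dusp1. The window of Dusp1 shares an element with that of Btg2. Jund and Fosl2, whose level was also higher, had no match to any searched element in their windows, which are not shown. RefSeq windows were found for 9 of the 10 genes. Each line gives the 250 bases before the gene start in GRCm38.p6, 5′ to 3′ on the gene's strand, with matches to the searched elements in capitals.
Btg2, chr1:134079156-134079405, minus strand: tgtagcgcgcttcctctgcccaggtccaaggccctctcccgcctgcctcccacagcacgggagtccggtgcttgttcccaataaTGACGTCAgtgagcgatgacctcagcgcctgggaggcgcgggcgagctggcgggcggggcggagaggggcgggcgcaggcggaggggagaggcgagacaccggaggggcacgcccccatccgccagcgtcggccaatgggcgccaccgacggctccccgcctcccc
Dusp1, chr17:26508473-26508722, minus strand: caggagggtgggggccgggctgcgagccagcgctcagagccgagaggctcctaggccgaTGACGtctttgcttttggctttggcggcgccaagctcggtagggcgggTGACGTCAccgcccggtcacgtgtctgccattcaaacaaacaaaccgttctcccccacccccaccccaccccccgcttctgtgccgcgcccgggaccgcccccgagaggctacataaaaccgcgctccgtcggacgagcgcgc
Jun, chr4:95052223-95052472, minus strand: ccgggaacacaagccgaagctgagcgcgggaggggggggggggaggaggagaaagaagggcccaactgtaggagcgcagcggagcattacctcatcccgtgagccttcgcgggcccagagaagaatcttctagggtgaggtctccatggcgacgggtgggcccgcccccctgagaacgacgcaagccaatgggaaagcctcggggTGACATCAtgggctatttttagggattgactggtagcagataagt
Fos, chr12:85473640-85473889, plus strand: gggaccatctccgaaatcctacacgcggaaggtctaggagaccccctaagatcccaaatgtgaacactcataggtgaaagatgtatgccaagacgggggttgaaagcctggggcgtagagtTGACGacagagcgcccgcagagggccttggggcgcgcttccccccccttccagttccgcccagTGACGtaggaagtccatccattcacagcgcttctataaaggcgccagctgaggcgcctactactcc
Junb, chr8:84978749-84978998, minus strand: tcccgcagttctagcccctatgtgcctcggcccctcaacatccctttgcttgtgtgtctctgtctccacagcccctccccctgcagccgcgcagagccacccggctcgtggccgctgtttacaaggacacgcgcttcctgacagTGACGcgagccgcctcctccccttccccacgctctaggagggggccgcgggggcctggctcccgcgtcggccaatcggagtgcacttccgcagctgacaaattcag
The elements were searched on both strands over the same 250 bases of 32851 RefSeq windows. The cAMP response element TGACGTCA, bound by CREB and ATF proteins, was found in 2 of the 9 windows and in 1.55% of all windows. It began 166 bases before the start of Btg2 and 143 bases before that of Dusp1, of which the first gene was lower in the DNTLX3+ arrays and the second did not pass the test. The shorter element TGACG, which each full element also holds, was found in 6 of the 9 windows and in 17.8% of all windows. The element TGACATCA, known from the Jun promoter, began 45 bases before the start of Jun and was found in 2.93% of all windows. The AP-1 element TGACTCA (4.46% of all windows) and the CArG box, bound by SRF (1.47%), were in none of the 9 windows, which says only that these letters are not in these 250 bases.

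T-lineage markers, 18 in all, were read in both groups. Of these, 2 lay under the median on every RAG-/- array and 2 on every DNTLX3+ array. The DN label itself was not tested with them. Cd3g was at 13.11 and 12.72 and Rag1 at 11.79 and 11.96 (group means, RAG-/- first, in log2 units as for all levels here). In limma, 10 of these 18 markers fell (adjusted p under 0.05, 55.6% against 19.4% of all genes) and 4 rose (22.2% against 23.0%). Among the falls were Cd3d (-0.66), Cd3e (-0.50), Cd3g (-0.40) and Bcl11b (-0.65). Of the 10756 genes left when probe sets under the median were omitted, 3607 fell and 1822 rose. Above the median on at least 1 array were 17 of the 18 markers. With a difference of at least 1 as well, Cd8b1 was called higher (1.52), and Cd7 (-1.74), Il2ra (-1.19) and Ptcra (-1.11) were called lower. By that rule, 1.44% of all genes were called higher and 5.07% lower. The groups also differed in signal range, with an interquartile range of 3.09 to 3.18 on the RAG-/- arrays and 2.47 to 2.85 on the DNTLX3+ arrays. The lowest was DNTLX3+ replicate 1. Values after rescaling of this range are given below where they change a result for the 10 genes or a related list's called count. Counts in the marker lists were not repeated after rescaling, nor were rises, falls and medians of the related lists. Markers of other cells moved with the groups. The summed linear signal of 25 myeloid and dendritic markers was 10171 to 11808 on the RAG-/- arrays and 1353 to 1480 on the DNTLX3+ arrays, with 21 called lower, led by H2-Aa (-5.50), Cd74 (-5.09) and H2-Ab1 (-4.19). For 15 thymic epithelial markers the sums were 7424 to 13311 and 1609 to 1832, with 9 called lower, led by Prss16 (-5.60), Ccl25 (-5.01) and Krt18 (-3.39). For 18 natural killer (NK) markers they were 4327 to 4965 and 1803 to 2254, with 13 called lower, led by Ccl5 (-3.68), Fcer1g (-3.10, also on the myeloid list) and Ncr1 (-2.98). The lowest values RMA gives are not 0, but 16, 6 and 13 markers of these lists lay under the median of every DNTLX3+ array, against 2 of each list on the RAG-/- arrays. Stromal and endothelial markers had 3 of 15 lower (Vcam1, -3.39, Dcn, -1.41, and Fn1, -1.16). Erythroid markers had 1 of 4 lower (Alas2, -1.69) and B-lineage markers none of 9. Without a minimum difference, 2 B-lineage markers rose and 3 fell in limma (22.2% and 33.3%). In none of these lists of other cells was a gene called higher. Myeloid and NK cells are known to express several of the 10 genes, and the part that such cells have in the results below was not tested. In such bulk samples, fewer cells of a type and less RNA per cell cannot be told apart.

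Set against the RAG-/- arrays, the 10 genes did not move as a group. Jund, Junb and Fosl2 were higher in the DNTLX3+ arrays, by 1.94, 1.73 and 1.51-fold, and Fos was higher from a level under the array medians. Btg2, an antiproliferative gene, was 2.15-fold lower and Jun was 1.40-fold lower. Fosb, Atf3, Ier2 and Dusp1 did not pass the test. At a limma adjusted p under 0.05, written below as rose or fell, 4 of the 10 genes rose and 2 fell, where 23.0% of all genes rose and 19.4% fell. With a minimum difference of 1 log2 unit as well, written as called, none of the 10 was called higher, against 1.44% of all genes, and only Btg2 was called lower, against 5.07%. The 2 groups of arrays did not overlap for 6 of the 10, the same 4 higher and 2 lower, where 32.3% of all genes were higher and 26.0% lower without overlap. The median log2 difference (DNTLX3+ minus RAG-/-, as throughout) was 0.28 for the 10 genes and 0.11 for all genes. The 10 lay between -1.10 and 0.95. With probe sets under the median omitted, 7 of the 10 genes were left, of which 3 rose and 2 fell. Of the 10756 genes then left, 1822 rose and 3607 fell.

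**Figure D1:**
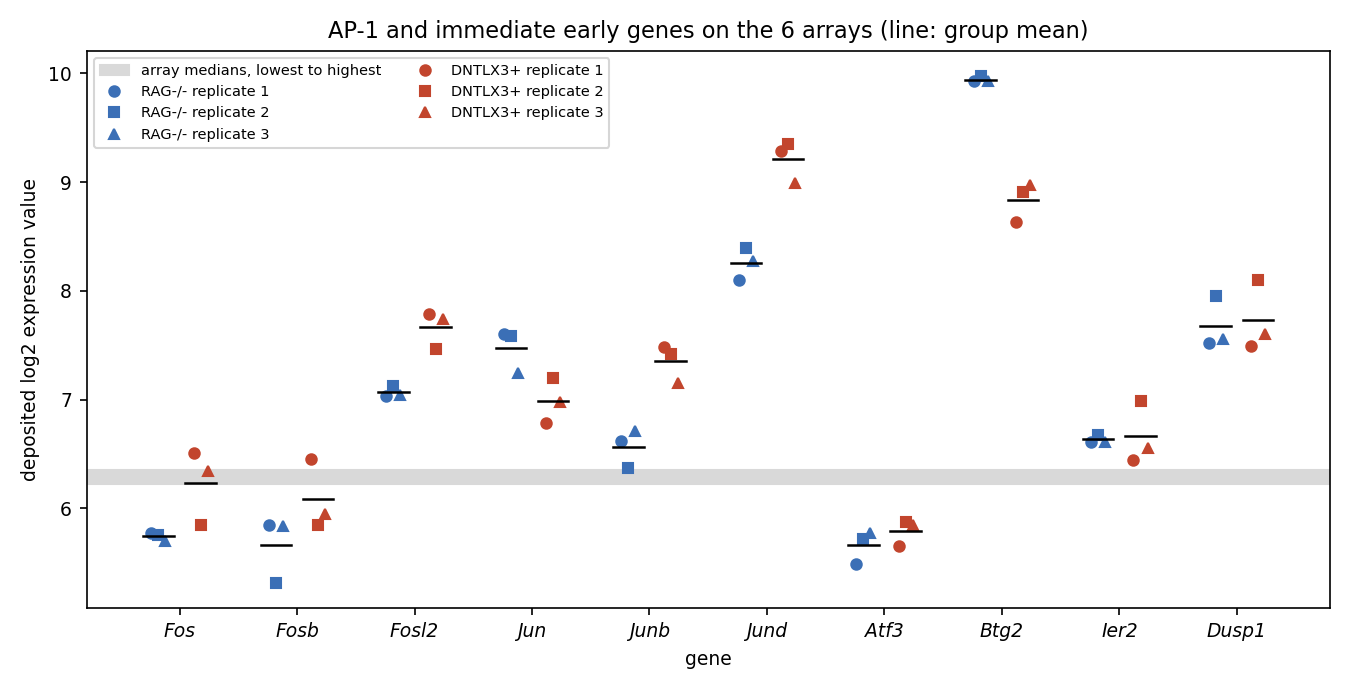
Deposited log2 expression values of the 10 genes on each array, with RAG-/- arrays in blue, DNTLX3+ arrays in red, a marker shape for each replicate number and a line at each group mean; the grey band spans the array medians. Jund, Junb and Fosl2 lie higher and Btg2 and Jun lower on all 3 DNTLX3+ arrays, while Ier2 and Dusp1 overlap.

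Within the Jun family, the 2 genes usually described as weaker activators rose and Jun itself fell. Jund, the broadly expressed member known to slow growth in fibroblasts, stood at 8.10, 8.39 and 8.28 on RAG-/- replicates 1 to 3 and at 9.29, 9.35 and 8.99 on DNTLX3+ replicates 1 to 3. All DNTLX3+ arrays lay above all RAG-/- arrays, by more than either group's own spread. Its difference was 0.95 ± 0.15 (SE, 95% interval 0.62 to 1.28, limma adjusted p = 0.00142), just short of the minimum difference. It was called when quantile normalization was repeated (1.12), with cyclic loess (1.12), without RAG-/- replicate 2 (1.02) and without DNTLX3+ replicate 3 (1.06). Junb, which in T cells is known for its part in helper-cell programmes, was at 6.62, 6.37 and 6.71 on the RAG-/- arrays and at 7.49, 7.42 and 7.15 on the DNTLX3+ arrays. The groups did not overlap. Its difference was 0.79 ± 0.15 (SE, limma adjusted p = 0.00351), and it kept an adjusted p under 0.05 in each of 16 alternatives on the log2 scale, with differences of 0.69 to 0.89.

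Jun, the founding member and the main target of JNK, was at 7.61, 7.58 and 7.24 on the RAG-/- arrays and at 6.78, 7.20 and 6.98 on the DNTLX3+ arrays. The groups parted by a narrow gap, between RAG-/- replicate 3 and DNTLX3+ replicate 2. The difference was -0.49 ± 0.16 (SE, limma adjusted p = 0.0334). It kept its sign in all 16 alternatives but passed the adjusted p in 9 of them, and its adjusted p was 0.0961 with quantile normalization repeated and 0.0576 with cyclic loess. On the scale of percentile rank within each array the groups overlapped, at 64.4 to 68.8% of probe sets on the RAG-/- arrays and 59.0 to 65.3% on the DNTLX3+ arrays. Leaving out DNTLX3+ replicate 1 (adjusted p = 0.0677) or replicate 3 (0.0656), or RAG-/- replicate 1 (0.127) or 2 (0.116), took its adjusted p past 0.05, with differences of -0.49 to -0.39.

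All 3 Fos family genes had higher means in the DNTLX3+ arrays, but only Fosl2 was above the array medians on every array. Fosl2 encodes FRA2, a FOS-related protein with a weak activation domain. It was at 7.03, 7.13 and 7.04 on the RAG-/- arrays and at 7.79, 7.47 and 7.74 on the DNTLX3+ arrays, without overlap. The difference was 0.60 ± 0.13 (SE, limma adjusted p = 0.00721), and it passed the adjusted p in all 16 of those alternatives, between 0.54 and 0.77. Fos, the classical immediate early gene, was at 5.77, 5.76 and 5.70 on the RAG-/- arrays, under their medians (6.22 to 6.25), and at 6.51, 5.85 and 6.34 on the DNTLX3+ arrays. DNTLX3+ replicate 2 stood close to the RAG-/- arrays and replicates 1 and 3 apart from them. The difference of 0.49 ± 0.17 (SE, limma adjusted p = 0.0466) was the weakest of the 6 that passed. It passed in 6 of 15 alternatives, and not with quantile normalization repeated (0.39, adjusted p = 0.105), with cyclic loess (0.32, 0.123) or with equal array medians (0.43, 0.0577). Of the arrays left out in turn, only the omission of DNTLX3+ replicate 2 kept the adjusted p under 0.05 (0.68, adjusted p = 0.00581). The adjusted p was 0.101 to 0.125 when any of the others was left out.

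Fosb, a relative of Fos that is induced with it, was at 5.85, 5.32 and 5.84 on the RAG-/- arrays and at 6.45, 5.84 and 5.95 on the DNTLX3+ arrays. The groups overlapped, RAG-/- replicate 2 and DNTLX3+ replicate 1 standing apart from the other arrays. Its difference was 0.42 ± 0.20 (SE, 95% interval -0.04 to 0.88, limma adjusted p = 0.123). Atf3, an ATF-family factor induced by stress that can pair with Jun proteins, lay under the median of every array, at 5.48, 5.72 and 5.77 and at 5.65, 5.88 and 5.85. No difference was detectable at that level (0.13 ± 0.14, limma adjusted p = 0.441), and its sign turned with quantile normalization repeated (-0.03) or cyclic loess (-0.08).

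**Figure D2:**
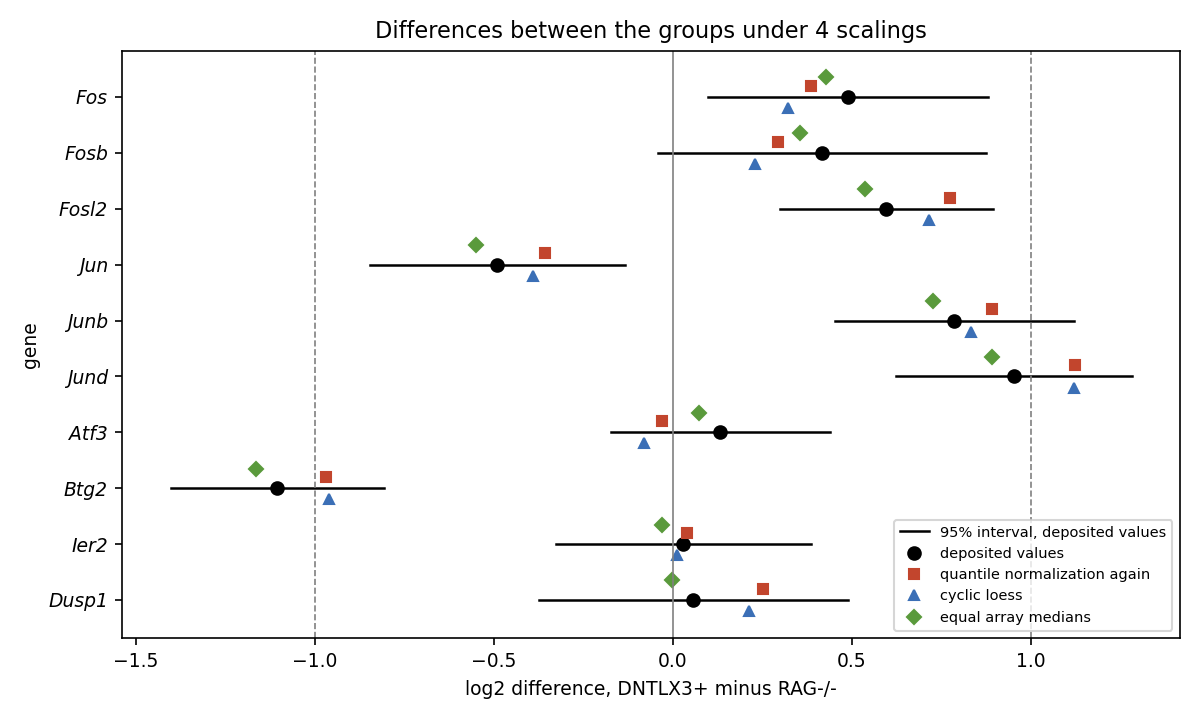
Log2 difference of each gene (DNTLX3+ minus RAG-/-) with its 95% interval from the deposited values, and the difference under each of 3 rescalings; dashed lines mark the minimum difference of 1. Rescaling of the range moves Jund past 1 (1.12) and Btg2 inside it (-0.97 and -0.96), while the signs of Fosl2, Jun, Junb, Jund and Btg2 are the same under each scaling shown.

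Among the remaining 3 genes Btg2 changed. On the deposited scale its difference was larger than that of any other of the 10. With quantile normalization repeated or cyclic loess, Jund differed more (1.12 against -0.97 and -0.96). In percentile rank Junb moved by more points (13.3 against -7.05), but a point does not stand for the same log2 difference at every level. Btg2, also called Tis21, restrains the cell cycle and promotes mRNA deadenylation, is known as a p53 target, and with Btg1 maintains quiescence in naive T cells. It was at 9.93, 9.97 and 9.93 on the RAG-/- arrays, within a range of 0.05, and at 8.63, 8.91 and 8.97 on the DNTLX3+ arrays. The difference was -1.10 ± 0.13 (SE, 95% interval -1.40 to -0.81, limma adjusted p = 0.000507), and the fall passed the adjusted p in all 16 of those alternatives. The minimum difference of 1 was met in 14 of them, and not with quantile normalization repeated (-0.97) or cyclic loess (-0.96). In percentile rank, Btg2 went from 95.3 to 95.6% of probe sets on the RAG-/- arrays to 87.7 to 89.4% on the DNTLX3+ arrays.

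Ier2 and Dusp1 differed between replicates by more than between groups. Ier2, whose nuclear protein is induced by growth factors, was at 6.61, 6.68 and 6.61 on the RAG-/- arrays and at 6.45, 6.99 and 6.55 on the DNTLX3+ arrays. DNTLX3+ replicate 2 was the highest and replicate 1 the lowest of all 6 arrays. The difference was 0.03 ± 0.16 (SE, 95% interval -0.33 to 0.39, limma adjusted p = 0.887). Dusp1, a nuclear phosphatase that switches off p38, JNK and ERK, was at 7.52, 7.96 and 7.55 and at 7.49, 8.10 and 7.60, with replicate 2 the highest of its group in both. Its difference was 0.06 ± 0.19 (SE, 95% interval -0.37 to 0.49, limma adjusted p = 0.818). The intervals of both genes lie inside 1 log2 unit, which bounds the difference without showing that the levels were equal.

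**Figure D3:**
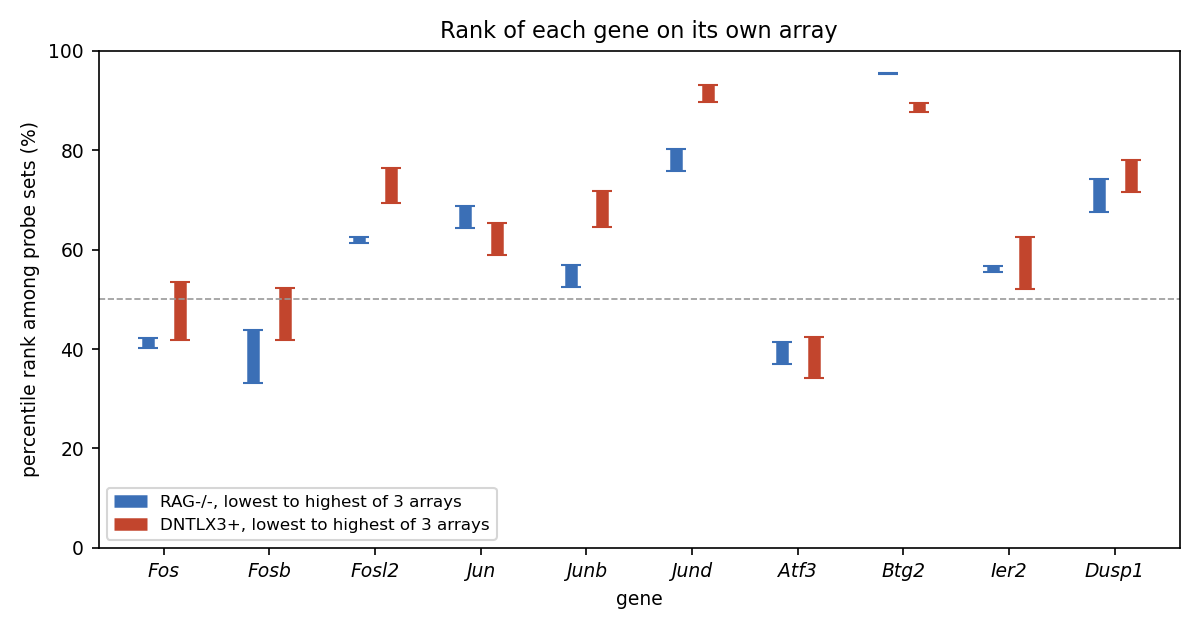
Percentile rank of each gene among the 28192 probe sets of its own array, drawn as the lowest to the highest of 3 arrays per group; the dashed line marks the middle of the array. Fosl2, Junb and Jund rank higher and Btg2 lower on the DNTLX3+ arrays without overlap, whereas Fos and Jun overlap on this scale.

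A rank within an array does not move with the array's signal range. On that scale Jund went from 75.8 to 80.3% on the RAG-/- arrays to 89.6 to 93.1% on the DNTLX3+ arrays, and Junb from 52.5 to 56.8% to 64.6 to 71.8%. Fosl2 went from 61.3 to 62.6% to 69.4 to 76.5%. Fos, at 40.1 to 42.3% and 41.8 to 53.4%, overlapped. The limma test on percentile ranks passed Junb (13.3 percentage points higher, adjusted p = 0.0106), Fosl2 (11.4 points, 0.0110), Jund (0.00533) and Btg2 (-7.05 points, 0.00493), and did not pass Fos (7.36 points, 0.131) or Jun (-5.23 points, 0.114).

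Differences between 2 family members on the same array parted the groups for Jun against its relatives. This followed from the levels above, where Jun was lower and Jund, Junb and Fos were higher, each without overlap. Levels of different probe sets are not comparable, so the change of the difference is given. The log2 difference of Jun minus Jund changed by -1.44 in the DNTLX3+ arrays, which lay at -1.72 to -1.23 relative to the RAG-/- mean where the RAG-/- arrays were at -0.26 to 0.29. For Jun minus Junb the change was -1.28, with DNTLX3+ arrays at -1.61 to -1.08 and RAG-/- arrays at -0.38 to 0.30. Fos minus Jun was 0.98 higher, with DNTLX3+ arrays at 0.38 to 1.46 and RAG-/- arrays at -0.10 to 0.20. Each of these 3 gave an exact two-sided permutation p of 0.1, the smallest that 3 arrays against 3 allow, or 0.167 adjusted over the 5 pairs tested, so none could pass 0.05. Fos minus Fosb changed by 0.07 (exact p = 0.6) and Fos minus Fosl2 by -0.11 (exact p = 0.4), both with overlapping groups.

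**Figure D4:**
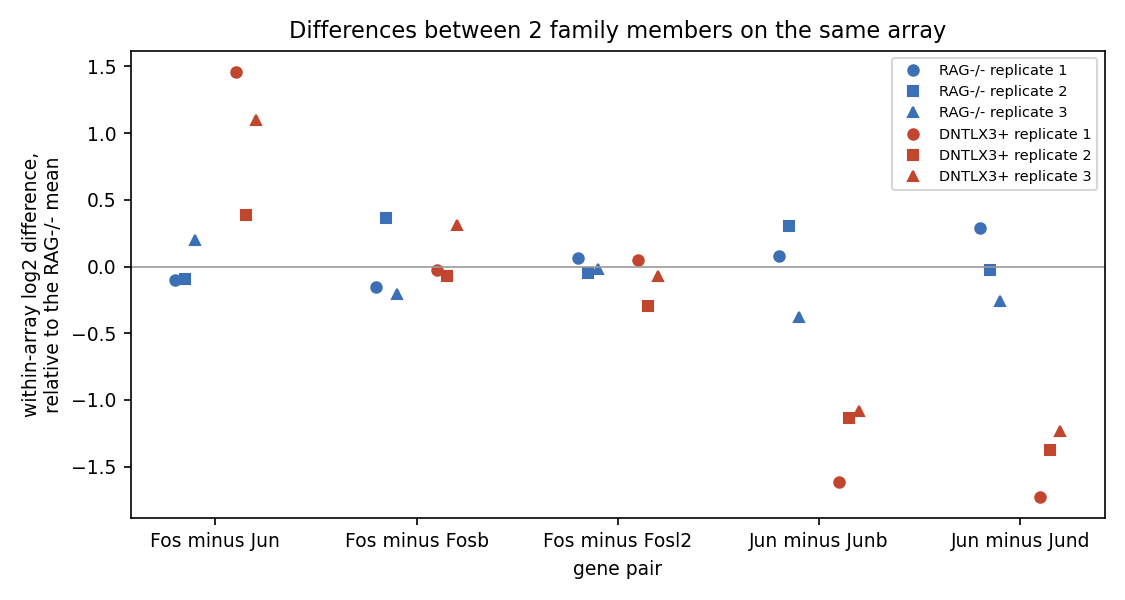
Log2 difference between 2 genes on the same array, relative to the RAG-/- mean of that pair, with 1 point per array (RAG-/- blue, DNTLX3+ red). Jun minus Junb and Jun minus Jund lie below -1 on all 3 DNTLX3+ arrays and between -0.38 and 0.30 on the RAG-/- arrays, and the 2 pairs within the Fos family overlap.

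Of 11 other AP-1 family genes measured, 3 rose and 3 fell (27.3% each, close to the 23.0% and 19.4% of all genes), and none was called. The rises were Batf, which pairs with Jun proteins in lymphocytes (0.86, limma adjusted p = 0.000977), Fosl1, which encodes FRA1 (0.79, 0.00681), and the small Maf gene Maff (0.66, 0.00788). Batf was at 6.47, 6.40 and 6.40 on the RAG-/- arrays and at 7.31, 7.17 and 7.38 on the DNTLX3+ arrays, and the groups lay well apart. Fosl1 and Maff had RAG-/- means under the array medians. Maff was also under the median of every DNTLX3+ array, and Fosl1 under those of DNTLX3+ replicates 2 and 3. The falls were Atf2 (-0.74, 0.00599) and Atf7 (-0.69, 0.0110), related factors that JNK and p38 phosphorylate, and Batf2 (-0.41, 0.0281). Batf3 (0.31), Maf (0.30), Jdp2 (0.29), Mafg (0.05) and Mafk (-0.15) did not pass. The median of the 11 was 0.29, against 0.11 for all genes.

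Some genes on the longer list of other immediate early genes changed more than any of the 10, but the list median was smaller. Of 46 measured, 14 rose and 11 fell (30.4% and 23.9%, against 23.0% and 19.4% of all genes), with a median of 0.04. Of the 46, 3 were called higher and 2 lower, where 1.44% and 5.07% of all genes were. The called rises were Nr4a1, an orphan nuclear receptor gene induced by T-cell receptor signals (1.80), the zinc-finger gene Egr1 (1.44) and Phlda1 (1.19), all from RAG-/- means under the array medians. The called falls were the small GTPase gene Rhob (-1.24), under the medians in both groups, and the DNA-binding factor Arid5b (-1.05). Of 9 other MAP kinase phosphatases, 5 rose and 1 fell (55.6% and 11.1%). The ERK phosphatase gene Dusp4 was called higher (1.17), again from a mean under the medians. Of 4 other BTG and TOB genes, Btg1 was called lower (-1.30), at 11.38, 11.35 and 11.26 on the RAG-/- arrays and 9.91, 10.03 and 10.15 on the DNTLX3+ arrays, while Tob1 (0.05), Tob2 (-0.08) and Btg4 (0.26) did not pass. Both Btg1 and Btg2 were thus lower on every DNTLX3+ array. Both had high signal, and of the 10756 genes left when probe sets under the median were omitted, 3607 fell and 1822 rose. Of 3 other IER genes, which are also on the immediate early list, Ier3 rose by 0.57, at levels under the median of every array. Ier5l (0.33) and Ier5 (0.17) did not pass.

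**Figure D5:**
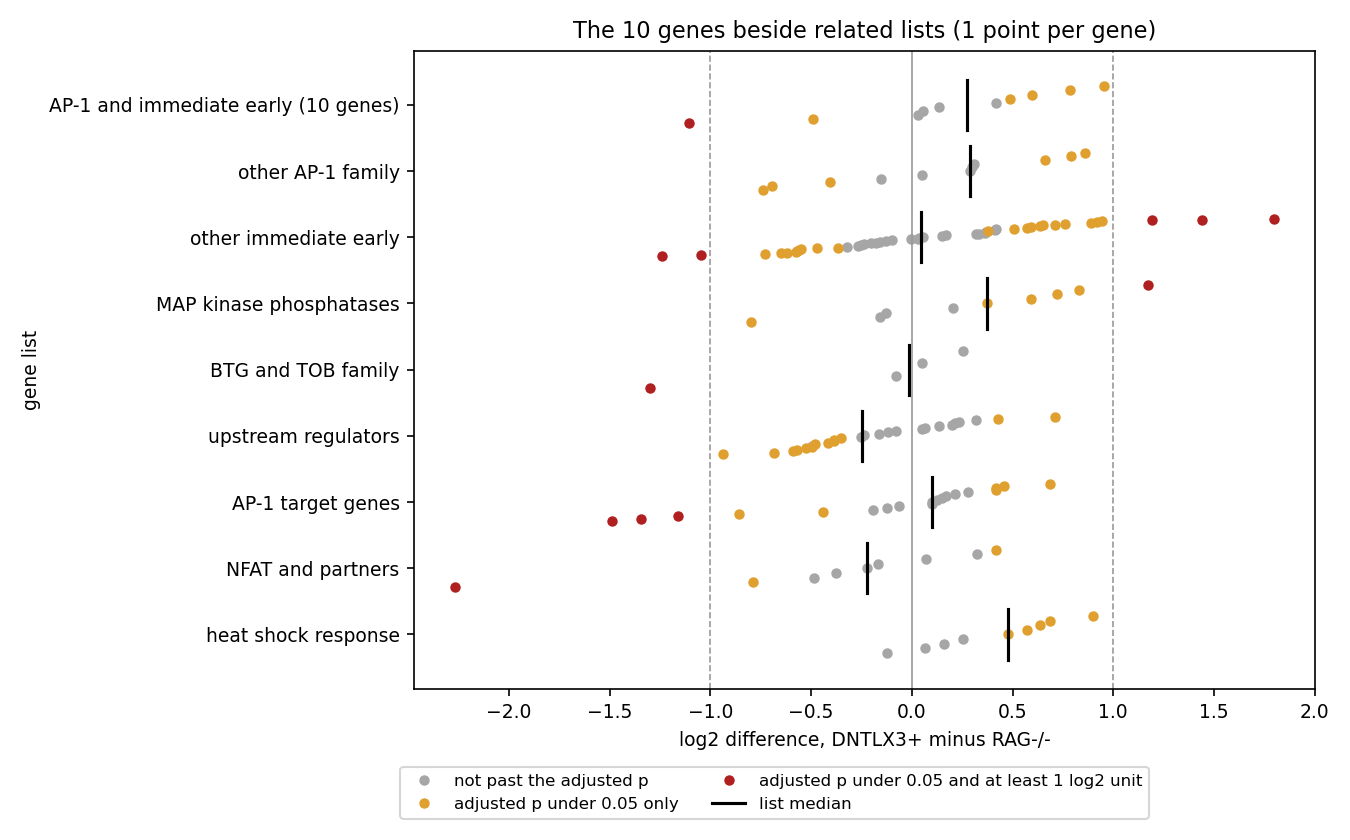
Log2 difference (DNTLX3+ minus RAG-/-) of each gene in the 10-gene set and in 8 related lists, coloured by the test passed, with a bar at each list's median; dashed lines mark a difference of 1. The set of 10 spans -1.10 to 0.95 with a median of 0.28, and the medians of the 8 lists shown run from -0.25 (upstream regulators) to 0.48 (heat shock genes).

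Among genes upstream of AP-1 more fell than rose. Of 26 kinases, Ras-pathway genes and factors that act on immediate early promoters, 11 fell (42.3%) and 2 rose (7.69%), against 19.4% and 23.0% of all genes, none was called, and the median was -0.25. Genes with higher signal leaned the same way, since 3607 fell and 1822 rose of the 10756 genes left when probe sets under the median were omitted, and 25 of the 26 were above the median on at least 1 array. Braf, a kinase of the ERK pathway, fell most (-0.94), with Sos1 (-0.68), Elk4 (-0.59) and the JNK2 gene Mapk9 (-0.52), while Srf, which binds the CArG box and is itself on the immediate early list, rose by 0.71. Of 19 genes known as AP-1 targets in T cells or other cells, 4 rose and 5 fell (21.1% and 26.3%). These shares were close to the 23.0% and 19.4% of all genes. Of the 19, however, 12 lay under the median on every RAG-/- array and 14 on every DNTLX3+ array. Levels this low limit what the shares can show. Gzmb (-1.49), Cd44 (-1.35) and Vim (-1.16) were called lower, as were 5.07% of all genes. Gzmb is also one of the NK markers, of which 13 of 18 were lower. Of 9 genes of NFAT and its partners, 1 rose and 2 fell (11.1% and 22.2%). The osmotic stress factor gene Nfat5 was called lower (-2.27), at 9.08, 8.90 and 9.10 and at 6.28, 6.78 and 7.22. Of 9 heat shock genes, 5 rose (55.6%, against 23.0% of all genes) and none fell, with a median of 0.48. Hsph1 rose most among them (0.90) and none was called.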

How the data were processed

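Total RNA labelled with biotin was hybridised to 1-colour Affymetrix arrays, 3 per group, grouped by their labels. The authors deposited log2 values, 1 per probe set, from RMA (affy, R 2.9.0, per the submitters' processing notes). No genome build is named. Of 34760 probe sets, 6568 numbered before the genome-ordered ones were taken as controls and left out. For each of 19937 genes, the probe set of highest mean among those annotated to it alone was used. All 28192 remaining probe sets were tested with limma 3.58.1 (lmFit, eBayes, two-sided, no covariate) in R 4.3.3, with Benjamini-Hochberg adjustment over all of them. With 3 arrays a group, precision is limited by their number. The fit was tested on simulated data. Tried as alternatives were 18 settings of scaling, filtering, model and arrays left out. The named genes are the 10, all of the other AP-1 family, and up to 3 called genes per list and direction with the largest differences. Further members are named beside their lists, chosen after their values were seen. The 10 genes and all lists were chosen with earlier results of these data known. Listed genes without a probe set of their own were not tested. Plots were drawn with matplotlib 3.10.9.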

Additional observations from a re-analysis of the deposited data

How the results depend on the processing

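The counts for the 10 genes depended on how the signal range was treated. With quantile normalization repeated or with cyclic loess, 1 gene (Jund) was called higher in place of 0. Then 0 were called lower in place of 1, 3 rose in place of 4 and 1 fell in place of 2. With percentile ranks and with the control probe sets kept, again 3 rose and 1 fell. With equal array medians, 3 rose and 2 fell. With treat against 1, none was called lower. The median of the 10 was 0.21 with equal array medians and 0.0579 among the 7 above the median level. Leaving out each array in turn gave 0 to 1 called higher, 3 to 4 that rose and 1 to 2 that fell. Signs turned only for small differences, none past the adjusted p. Atf3 gave -0.0310 with quantile normalization repeated, -0.0792 with cyclic loess and -0.642 percentage points with ranks. Ier2 gave -0.0305 and Dusp1 -0.00252 with equal medians, and with arrays left out Ier2 ranged from -0.134 to 0.138 and Dusp1 from -0.126 to 0.198. Fos minus Fosb ranged from -0.0477 to 0.253 with arrays left out. The causes were not tested.

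Replicate numbers did not pair the arrays (correlation of same-numbered deviations -0.11, 0.06 and -0.00), and with the replicate block 4 genes rose, 2 fell and 1 was called lower, as without it. Among related lists, the phosphatases had 2 called higher in place of 1, and heat shock genes 1 in place of 0, after either rescaling of the range. With arrays left out, counts in the immediate early list ranged from 3 to 5 called higher (5 without DNTLX3+ replicate 3) and 1 to 2 lower (1 without RAG-/- replicate 1 or DNTLX3+ replicate 1). Heat shock genes had 1 called higher without either of these 2 arrays, and the upstream regulators 1 called lower in place of 0 without DNTLX3+ replicate 2 or 3. The median of all genes was 0.04 with quantile normalization repeated and 0.00 with cyclic loess. Ranks have no minimum difference, so no call was made with them, and Fos, Fosb and Atf3 were absent when probe sets under the median were left out. Levels under the array medians limit what can be said of Fos, Fosb and Atf3.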

Other observations

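By root mean square distance between centred log2 profiles over the 6 arrays, among 10749 genes above the median level, Sfi1 (0.04) and Tubgcp5 (0.05) were nearest to Btg2, Foxl2os (0.03) and Cdk5r2 (0.04) to Fos, and Acadl (0.02) and Rnf114 (0.04) to Jun. With 6 arrays in 2 groups such likeness is a description.

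Ier2 had the same deposited value on RAG-/- replicates 1 and 3 (6.61), as had 30 of the 28192 probe sets. Between other arrays of a group 2 to 43 probe sets had identical values.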
